A study of Mus musculus with 16 samples.

Results

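Distal chromosome 12 was examined as a block of 219 genes in female mouse embryonic stem cells (ESCs), drawn from 55421 genes in the deposited counts. Members lie on chromosome 12 between positions 75450881 and 118301440 of GRCm38, an interval of 42.9 Mb, and have more than 160 allele-specific reads over 16 RNA-seq libraries. Meg3, Rian, Mirg and Esrrb also lie in this interval and were left out by name. Beside these 4, 1280 genes are annotated there, and 1061 of them were at or below the read minimum. The interval was drawn where reads of the Cast/Ei (Cast) allele were known, from these same libraries, to outnumber reads of the 129/Sv allele, so the Cast share of the members is given as a description and not as a test. It was set beside the 169 genes of proximal chromosome 12 and the 8790 genes of the other 18 autosomes that passed the same read minimum.

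The cells were F1 hybrids of 129/Sv and Cast, and all lines carried a doxycycline (dox)-responsive promoter at the endogenous Xist gene of the Cast X chromosome. Wild-type (Wt) cells were compared with Spen-/- cells, in which the Spen open reading frame had been removed from both alleles by CRISPR/Cas9. Each genotype was collected at day 0 without dox, at day 0 with dox, at day 3 of monolayer differentiation without dox and at day 7 with dox, with 2 replicates per condition. Dox was given at 2 µg/mL for 4 days before day 0 and through differentiation, and treated cells were sorted for the dsRed reporter, so dox cannot be told apart from sorting. ESCs were grown on male C57BL/6 feeders, which were removed by plating before differentiation, and whether the replicates are separate clones is not given in the sources used here. The p-values measure the spread between these libraries.

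Reads on genes ranged from 7571566 to 14822867 per library, and 13.0% to 15.3% of them could be assigned to an allele. Spen itself was at 16.2 to 43.5 CPM (counts scaled to a common library size) in Wt libraries and at 0.129 to 5.45 CPM in Spen-/- libraries. The summed level of 6 ESC markers (Pou5f1, Sox2, Nanog, Zfp42, Tdgf1 and Dppa5a) was 3270 to 9534 CPM at day 0, and 6 feeder fibroblast markers summed to 11.8 to 130 CPM over all libraries, among them Col1a1 at 28.4 to 66.9 CPM at day 3 and day 7. The Spen-/- day 7 libraries had the fewest detected genes, 14969 and 15324 against 16952 to 23458 elsewhere, and the tests of genotype and day 7 were also run without them.

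In an F1 hybrid every autosomal gene has a copy from each strain, and a read that covers a variant between the strains shows which copy it came from. The Cast share of a gene is its Cast reads divided by its 129/Sv plus Cast reads, and genes expressed alike from both copies have a share near 0.5. Single genes can depart from this through variants in their regulatory DNA, or through imprinting, the parent-of-origin silencing for which the Dlk1-Dio3 cluster of distal chromosome 12 is known. The members examined here include housekeeping genes, among them Hsp90aa1, a cytosolic chaperone, and Psmc1, an ATPase of the proteasome.

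The promoters below, from 250 bases before to 50 bases after the gene start in RefSeq (GRCm38.p6, the C57BL/6J reference, not 129/Sv or Cast), are shown for 1 gene on each side of the start of the interval and for a member without Cast excess. Snapc1, a subunit of the factor that transcribes small nuclear RNA genes, is the last proximal gene (chr12:73964247-73964546, plus strand). Wdr89, a WD-repeat protein, is the second member (chr12:75669488-75669787, minus strand), and Tcl1, a coactivator of AKT kinase expressed in ESCs, lies inside the interval (chr12:105222688-105222987, minus strand). Capitals mark GGGCGG or CCAAT on either strand, and no match overlaps another. RefSeq entries for Ppp2r5e and Hsp90aa1 were not used here.
Snapc1: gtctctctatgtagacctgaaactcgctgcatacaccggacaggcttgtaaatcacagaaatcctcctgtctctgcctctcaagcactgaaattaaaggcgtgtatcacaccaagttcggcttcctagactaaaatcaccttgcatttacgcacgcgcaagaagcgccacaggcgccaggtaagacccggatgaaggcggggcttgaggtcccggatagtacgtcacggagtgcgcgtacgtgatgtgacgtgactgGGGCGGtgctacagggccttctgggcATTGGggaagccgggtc
Wdr89: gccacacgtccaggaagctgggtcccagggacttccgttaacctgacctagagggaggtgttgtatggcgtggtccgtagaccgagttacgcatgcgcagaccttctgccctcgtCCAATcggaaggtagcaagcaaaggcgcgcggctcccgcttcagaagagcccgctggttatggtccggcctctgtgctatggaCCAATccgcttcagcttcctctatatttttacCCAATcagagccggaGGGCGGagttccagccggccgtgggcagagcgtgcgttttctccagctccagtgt
Tcl1: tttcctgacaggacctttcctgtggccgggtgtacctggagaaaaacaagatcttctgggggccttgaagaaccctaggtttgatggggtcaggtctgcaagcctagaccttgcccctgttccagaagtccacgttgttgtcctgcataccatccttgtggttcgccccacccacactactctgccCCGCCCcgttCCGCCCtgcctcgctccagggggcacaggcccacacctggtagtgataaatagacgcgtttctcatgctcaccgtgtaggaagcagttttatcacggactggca
Snapc1 had 1 match to GGGCGG and 1 to CCAAT, Wdr89 had 1 and 3, and Tcl1 had 2 and 0. TATAAA, searched on both strands, was found in none of these windows. Over the 231 promoters of 180 matched members, 63.6% held GGGCGG, 40.7% CCAAT and 6.49% TATAAA. The shares over all 32851 promoters were 35.7%, 37.4% and 13.6%, and those over the 168 proximal promoters were 64.3%, 33.9% and 5.36%. The distal promoters were therefore close to the proximal ones in the share with GGGCGG.

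Most members were read more often from the Cast copy, and by a similar factor (described, since it defined the interval). The median Cast share of the 219 members, with reads summed over 16 libraries, was 0.726 (interquartile range 0.681 to 0.779), a Cast to 129/Sv ratio of 2.65. The share was above 0.5 in 208 members and between 0.6 and 0.85 in 184. The proximal genes had a median of 0.506, with 87 of 169 above 0.5, and the other autosomes had 0.489. The spread among members, with an interquartile range of 0.73 on the log2 Cast to 129/Sv scale, was near that of the proximal genes (0.70) and the other autosomes (0.67), so the members were displaced as a group. In the plot of share along the chromosome, this displacement runs through the interval, whose start was placed by these same shares.

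**Figure D1:**
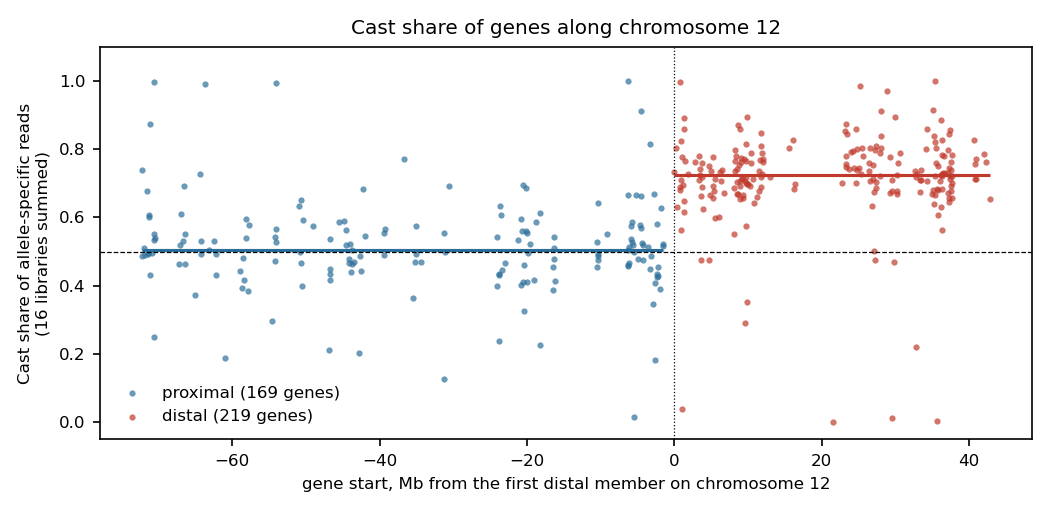
Cast share of each gene of chromosome 12 (vertical axis, reads summed over 16 libraries) against its start in Mb from the first distal member (horizontal axis), with medians as horizontal lines and a share of 0.5 dashed. The 169 proximal genes (blue) scatter around 0.506 and the 219 distal members (red) around 0.726.

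The share stayed at one level along the interval. In bins of 10 Mb the median was 0.719 (29 members), 0.713 (67), 0.769 (16), 0.733 (52) and 0.726 (55) from the first bin to the last. The 8 proximal bins lay between 0.479 and 0.532. Elsewhere, 217 autosomal bins of the same length with at least 10 genes lay between 0.398 and 0.556. Over the 219 members, Spearman's rho of the share was 0.088 with position, 0.019 with median CPM, 0.060 with exon length and 0.042 with the number of allele-specific reads. These members share libraries and neighbours, and the values are descriptions.

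The genes on either side of the start of the interval, which was placed by these same shares, are given as a description. Hif1a, the hypoxia-responsive transcription factor, had 1493 Cast reads of 2899, a share of 0.515 (Wilson 95% interval 0.497 to 0.533), and Snapc1, 259 of 496, a share of 0.522 (0.478 to 0.566). Snapc1 ends at 73988966. Ppp2r5e, a regulatory subunit of protein phosphatase 2A, starts 1.46 Mb further on and had 246 of 335, a share of 0.734 (0.685 to 0.779). Wdr89 followed with 2115 of 2631 (0.804), and Syne2, a protein of the nuclear envelope, with 300 of 476 (0.630, interval 0.586 to 0.672). Prkch, a protein kinase C before Hif1a, had 114 of 182 (0.626, 0.554 to 0.693), so its interval overlapped that of Syne2. Between Snapc1 and Ppp2r5e only Rhoj, with 20 Cast reads of 29 (0.690, 0.508 to 0.827), had more than 20 reads. At the far end, Rapgef5 had 490 of 624 (0.785), Cdca7l 3010 of 3951 (0.762) and the transcription factor Sp4 156 of 238 (0.655). These intervals cover counting error only, since reads carry no molecular identifiers.

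Genes of the interval that the rule left out for few reads also favoured Cast. Of 105 with more than 20 reads, 84 had a share above 0.5, and their median was 0.706. Proximal genes in the same range of reads had a median of 0.463, with 30 of 71 above 0.5. Just under the minimum, Fam161b had 111 Cast reads of 147, Noxred1 99 of 151 and Tunar 107 of 158. Just over it, Tmem121 had 117 of 167, Gm6722 138 of 180 and D430020J02Rik 145 of 188.

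A few members did not share the Cast excess. Tcl1 had a share of 0.469 over 8162 reads (0.458 to 0.480). Fcf1, a factor of ribosomal RNA processing, had 0.291 over 2463 reads, below 0.5 in each of 16 libraries (0.203 to 0.364). Ccdc85c, a coiled-coil protein, had 0.220 over 3499 reads, and Acyp1, an acylphosphatase, 0.352 over 711 reads. The lowest shares belonged to the pseudogenes Gm6863 (0.0013) and Gm46379 (0.0021) and the noncoding RNAs Gm28875 (0.0129) and Gm10451 (0.0386). The highest belonged to Mpc1-ps (1), Gm7862 (0.998), Gm48586 (0.986), Serpina3m (0.970) and B930059L03Rik (0.917). Pseudogenes and the Serpina3 family share sequence with other genes, and their values are uncertain. Gm48586 also lies within Rps6ka5. In all, 7 members had a share below 0.4 and 6 above 0.9.

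Members that are not protein-coding spread more widely. The 203 protein-coding members had a median share of 0.724, with 178 between 0.6 and 0.85 and 3 below 0.4. The 16 others had a median of 0.769 (interquartile range 0.519 to 0.885), with 6 between 0.6 and 0.85 and 4 below 0.4. Another gene with reads overlapped 105 members, whose median was 0.741, while the 114 without one had 0.714. Whether the counting used strand is not given in the sources used here, so reads of overlapping genes could not be separated.

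Among the members with the most reads named here the excess was present in every library, and its range across libraries differed between genes. Hsp90aa1 had 54720 Cast reads of 65334, a share of 0.838, with a lowest library of 0.808, a median of 0.841 and a highest of 0.857. Psmc1 had a share of 0.859 (0.833, 0.862 and 0.874). Tmed10, a cargo receptor of the early secretory pathway, had 0.895 (0.870, 0.893 and 0.929), so its lowest library exceeded the highest of Hsp90aa1. Vti1b, a SNARE protein of vesicle fusion, had 0.758, the RNA helicase Ddx24 0.723, the folate enzyme Mthfd1 0.690 and the ubiquitin ligase Ubr7 0.687. Siva1, a regulator of apoptosis, had 0.729, the tryptophanyl-tRNA synthetase Wars 0.738, the splicing factor Rbm25 0.798 and the kinase Vrk1 0.788. Library shares of these further genes ran more widely, from 0.710 to 0.825 in Vti1b, 0.624 to 0.751 in Ddx24 and 0.573 to 0.767 in Mthfd1. The ranges were 0.604 to 0.809 in Ubr7, 0.642 to 0.791 in Siva1 and 0.669 to 0.885 in Wars. Rbm25 ran from 0.738 to 0.845 and Vrk1 from 0.741 to 0.864. Each of the genes in this paragraph was above 0.5 in 16 of 16 libraries. Over all members, 114 of 219 were above 0.5 in every library in which they had at least 10 reads, against 12 of 169 proximal genes.

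The Cast share was similar across the lists of genes by function. The median share was 0.724 in 5 translation genes (Eif2s1, Eif2b2, Eif5, Wars and Trmt61a, 0.701 to 0.738). It was 0.723 in 13 RNA processing genes, 0.727 in 13 genes of DNA repair and chromatin, and 0.715 in 12 transcription factors. Mitochondrial and metabolic genes had 0.698 (12 members), chaperones and protein turnover 0.738 (9), membrane traffic, lipids and glycosylation 0.720 (17), and signalling and development 0.734 (15). The translation genes, the smallest of the lists above with 5 members, had the narrowest range, 0.037 between Eif2b2 (0.701) and Wars (0.738). A range tends to be narrower over fewer genes. Of the Dlk1-Dio3 list, the retrotransposon-derived Rtl1 was a member, with 303 Cast reads of 379 (0.799), and Dlk1, Dio3 and Begain did not reach the read minimum.

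In each of the 16 libraries the median share over members lay above 0.7. Wt medians were 0.713 and 0.735 (day 0 without dox), 0.729 and 0.733 (day 0 with dox), 0.730 and 0.739 (day 3) and 0.738 and 0.734 (day 7). The corresponding Spen-/- medians were 0.727 and 0.735, 0.759 and 0.736, 0.756 and 0.747, and 0.753 and 0.775. The mean over 8 libraries was 0.731 ± 0.00811 (SD) in Wt and 0.749 ± 0.0155 (SD) in Spen-/- cells. The proximal medians ranged from 0.467 to 0.542 and those of other autosomes from 0.462 to 0.499, so no library brought the sets together. The difference between distal and proximal medians was 0.208 to 0.290.

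**Figure D2:**
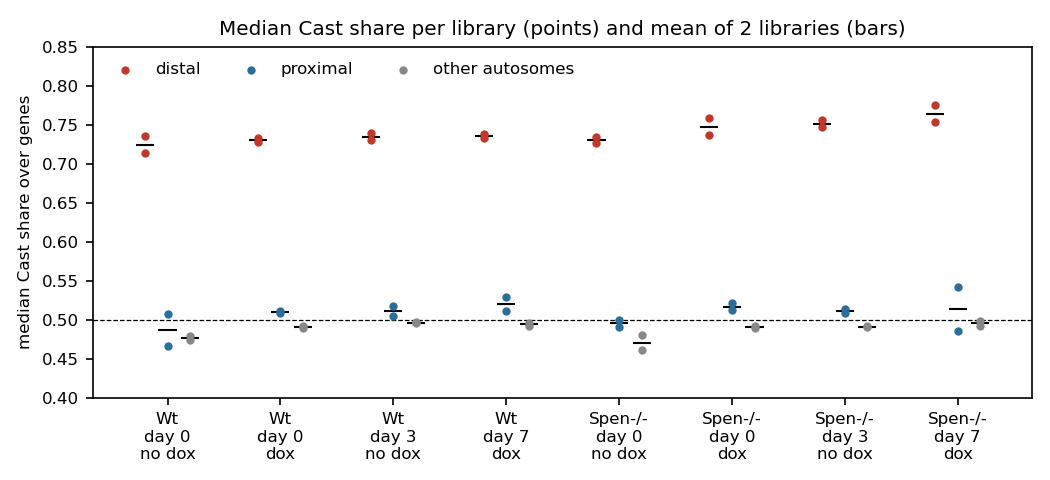
Median Cast share over genes in each library (points) with the mean of 2 libraries (bars), for distal members, proximal genes and other autosomes, by genotype, day and dox. Distal medians run from 0.713 to 0.775 and the other sets stay between 0.462 and 0.542.

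Spen-/- cells had slightly higher distal medians than Wt cells. The difference of the means was 0.0066 at day 0 without dox, 0.0166 at day 0 with dox, 0.0169 at day 3 and 0.0285 at day 7. Both Spen-/- libraries were above both Wt libraries in the last 3 conditions. Relative to the proximal genes of the same library the differences were -0.0016, 0.0094, 0.0170 and 0.0355. On this relative scale the day 7 libraries of the genotypes overlapped (0.212 and 0.290 in Spen-/-, 0.208 and 0.222 in Wt). The mean over conditions was 0.0151 relative to the proximal genes and 0.0172 without that correction, and the latter was 0.0134 without day 7. No test was made on this value, since the members were chosen on the same reads.

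Reads of each allele on the members were set beside those on the proximal genes, as sums over sets of unequal size (219 and 169 genes) and as a description, since the Cast excess defined the interval. The members took 1.14 to 1.34 times as many 129/Sv reads as the 169 proximal genes, depending on the library, and 2.84 to 3.55 times as many Cast reads. With unassigned reads included the ratio was 2.02 to 2.52, or 1.02 to 1.33 on the log2 scale. The Spen-/- day 7 libraries had the highest log2 ratios of all reads, 1.25 and 1.33. Hsp90aa1 alone made up 14.2% and 16.8% of the distal reads there, and without it the log2 ratio was 1.03 and 1.07, within the range of the other libraries (0.918 to 1.07).

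**Figure D3:**
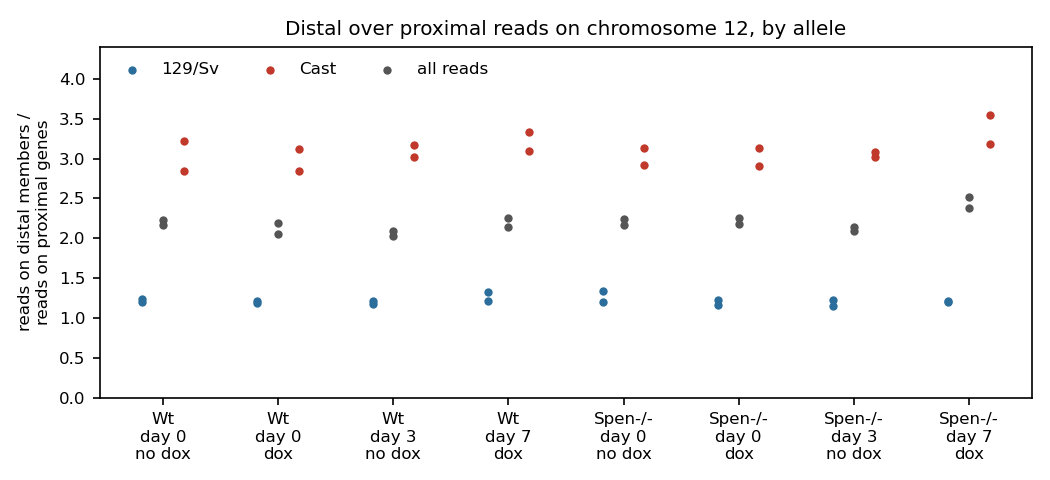
Reads on the 219 distal members divided by reads on the 169 proximal genes in each library (vertical axis, linear, no unit), for 129/Sv, Cast and all reads. Cast ratios (2.84 to 3.55) lie above 129/Sv ratios (1.14 to 1.34) in each library.

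These sums depend on the number and kind of genes in each set: as a difference of median log2 CPM over genes, the log2 ratio of all reads was 0.14 against 1.13 for the sums (means over 16 libraries). Levels were also compared per gene and per length. The median over members of RPKM (total reads scaled by exon length in kilobases and by library size) was 6.77 to 10.2 across libraries, and that over proximal genes 6.73 to 8.52. The distal median was the higher in 13 of 16 libraries. On this scale the distal mean was 8.38 ± 1.02 (SD, n = 16), the proximal mean 7.48 ± 0.543 and that of other autosomes 7.61 ± 0.537. The copy number of the interval and differences in mapping between the alleles were not tested.

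Changes of the Cast to 129/Sv ratio between conditions were tested where both replicates of every condition together held over 20 reads of known allele, and 156 of the 219 members passed this. The test compares conditions and not the members with 0.5. Between Spen-/- and Wt cells, over 4 conditions, 1 of 156 members changed at an adjusted p under 0.05 (edgeR quasi-likelihood test with Benjamini-Hochberg adjustment over 6442 genes), and 1.4% of all genes tested did. No chromosome was left out of these 6442 genes, so the shares of all genes include X-linked genes. The median log2 change of the members was 0.16 (102 of 156 above 0), against 0.01 over all genes. For dox at day 0 no member was called, with 0.202% of all genes called. By day 3 without dox, again none was called, with 0.0466% of all genes. At an unadjusted p under 0.05 there were 14 and 13 members, and DESeq2 called 1 and 0. Day 7 against day 0 with dox gave 2 of 156, both toward Cast, with 0.481% of all genes. Of 128 proximal genes tested, 0 were called for genotype, 0 for dox, 0 for day 3 and 1 for day 7.

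The member called between genotypes was Wdr89. In Wt libraries its Cast reads were 117 of 158 and 49 of 58 at day 0 without dox, 313 of 407 and 179 of 254 with dox, 168 of 209 and 205 of 254 at day 3, and 119 of 158 and 126 of 159 at day 7. Spen-/- libraries had 107 of 115 and 93 of 114, 88 of 118 and 149 of 186, 136 of 149 and 126 of 152, and 43 of 43 and 97 of 97 in the same order. The Spen-/- day 7 libraries thus held no 129/Sv read, which allows a 129/Sv share of up to 6.98% and 3.09% (3 counts of each total, for counting error only). The fitted log2 change of the ratio was 2.34 ± 0.41 (SE, adjusted p = 0.0118) between genotypes and 3.82 ± 0.69 (adjusted p = 0.0359) at day 7, and neither is a bound where 129/Sv is at 0. Without the Spen-/- day 7 libraries these were 0.66 (adjusted p = 0.718) and 0.27 (adjusted p = 1, Wt alone), and the calls were lost.

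Lgmn, a lysosomal asparaginyl endopeptidase, was the other member called at day 7. Its Cast share in Wt cells with dox was 0.628 and 0.571 on day 0 and 0.782 and 0.854 on day 7. The Spen-/- libraries had 0.825 and 0.661, then 0.929 and 0.884, so day 7 exceeded day 0 in both genotypes. The log2 change of its ratio was 1.67 ± 0.32 (adjusted p = 0.0377), kept in 9 of 22 alternatives and lost without the Spen-/- day 7 libraries (1.59, adjusted p = 0.184, Wt alone). The day 0 libraries without dox had 0.493 and 0.692 in Wt and 0.598 and 0.584 in Spen-/- cells, lower than the median member.

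Tcl1 was not tested for its ratio, because the Wt day 7 libraries held 2 allele-specific reads each. Its Cast reads in Wt cells were 705 of 1554 and 782 of 1495 at day 0 without dox, 192 of 381 and 209 of 459 with dox, and 37 of 76 and 43 of 86 at day 3. In Spen-/- cells they were 600 of 1208 and 581 of 1159, 137 of 405 and 267 of 641, and 18 of 82 and 37 of 96. At day 7 the Spen-/- libraries had 84 of 168 and 132 of 348. No library with at least 10 reads had a share above 0.523, whereas the median member stood at 0.713 or more in each library.

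**Figure D4:**
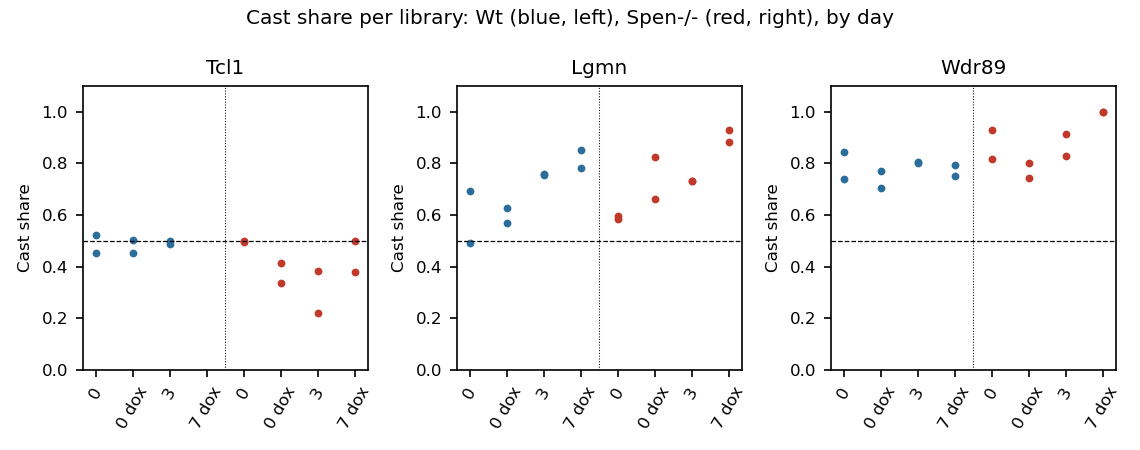
Cast share per library (vertical axis) for Tcl1, Lgmn and Wdr89 in libraries with at least 10 allele-specific reads, by day and dox, with Wt in blue and Spen-/- in red and a share of 0.5 dashed. Tcl1 stays at or below 0.523, Lgmn is highest at day 7, and Wdr89 is at 1.0 in both Spen-/- day 7 libraries.

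Total counts, summed over 129/Sv, Cast and unassigned reads, were tested in all 219 members among 18150 genes. In bulk RNA, fewer cells of a type and less RNA per cell cannot be told apart. Between Spen-/- and Wt cells, over 4 conditions, 3 members were higher, with 2.19% of all genes higher, and 12 were lower, with 2.72% of all genes lower. The 169 proximal genes, under the same read minimum as the members, had 5 higher and 4 lower. The median change was -0.01 for the members, -0.02 for the proximal genes and -0.15 for all genes. With both Spen-/- day 7 libraries left out, edgeR called 0 of 219 members over the other 3 conditions, with 30 at an unadjusted p under 0.05 and 19 calls among all genes.

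Tcl1 was higher in Spen-/- cells by 1.75 ± 0.17 on the log2 scale (SE, adjusted p = 0.000322), and by 0.22 (adjusted p = 0.570) without the Spen-/- day 7 libraries. Wt libraries held 593 and 902 CPM (day 0 without dox), 119 and 210 (day 0 with dox), 33.3 and 34.9 (day 3) and 1.35 and 2.08 (day 7). The corresponding Spen-/- libraries held 610 and 697, 234 and 296, 35.9 and 42.2, and 101 and 171 CPM. The genotypes were farthest apart at day 7, and the Spen-/- libraries were also the higher ones at day 0 with dox and at day 3. The ESC marker sum was 324 to 477 CPM in Wt and 2839 to 2919 CPM in Spen-/- libraries at day 7, with all 6 markers above 0. Most of the Spen-/- sum was Dppa5a, at 2129 and 1958 CPM against 35.4 and 44.2 CPM in Wt. Sox2, Nanog and Zfp42 were also higher in the Spen-/- libraries, and Tdgf1 overlapped between the genotypes. Pou5f1 went the other way, with 52.9 and 48.1 CPM in Wt and 29.7 and 19.8 CPM in Spen-/- libraries. The part of these markers in the Tcl1 result was not tested.

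The other members with the largest changes between genotypes were lower in Spen-/- cells, and most of them were at 0 in the Spen-/- day 7 libraries. Rps6ka5, the kinase MSK1, was called at an adjusted p of 0.00304 and was at 15.9 and 12.3 CPM in Wt and 0 in both Spen-/- libraries at day 7, at least 36.6-fold lower there against a floor of 3 counts per library. Pgf, placental growth factor (adjusted p = 0.0487), was at 20.7 and 26.3 CPM and at 0, at least 60.9-fold lower. Slc25a29, a mitochondrial carrier (adjusted p = 0.0482), was at 9.18 and 5.35 CPM and at 0, at least 18.8-fold lower. The noncoding B930059L03Rik (adjusted p = 0.0484) was at 3.11 and 6.98 CPM and at 0, at least 13.1-fold lower. Adssl1, an adenylosuccinate synthase, fell by 1.99 on the log2 scale (adjusted p = 0.00827), with 49.3 and 39.2 CPM in Wt and 1.67 and 0.465 CPM in Spen-/- libraries at day 7. The genotype calls of Rps6ka5 and Adssl1 were each kept in 21 of 22 alternatives. Those of Slc25a29, Pgf and B930059L03Rik were kept in 9, 6 and 4. In all, 7 members were at 0 in both Spen-/- day 7 libraries, where the fewest genes were detected. The fold bounds cover counting error only, and replicates differed by more than that. Without these libraries the log2 changes were -0.04 for Rps6ka5, -0.52 for Pgf, -0.94 for Slc25a29 and -0.88 for Adssl1, and that of B930059L03Rik turned to 0.041, all with an adjusted p of 0.249 or more.

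Among the listed genes, Fos, an immediate early gene of the AP-1 factor, fell by 1.25 (adjusted p = 0.0145), Fut8, which adds core fucose to glycans, by 0.89 (adjusted p = 0.0293) and Mthfd1 by 0.62 (adjusted p = 0.0487). In the RNA processing list 2 of 13 members rose, Fcf1 by 0.66 (adjusted p = 0.0275) and Erh by 0.45 (adjusted p = 0.0450). Without the Spen-/- day 7 libraries these changes were -0.79 for Fos, -0.66 for Fut8, -0.56 for Mthfd1, 0.55 for Fcf1 and 0.38 for Erh, and none passed the threshold. The DNA repair and chromatin, chaperone and translation lists had no member called between genotypes.

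Dox at day 0 changed 3 members, all lower. None was higher, with 0.132% of all genes higher, and 0.364% of all genes were lower. Among the 169 proximal genes 0 were higher and 2 lower. Fos went from 397 and 310 CPM to 95.9 and 45.5 in Wt and from 373 and 247 to 19.9 and 30.0 in Spen-/- cells, a fall of 2.98 ± 0.35 on the log2 scale (SE, adjusted p = 0.00418). Tcl1 fell by 1.74 ± 0.23 (adjusted p = 0.00697). Lgmn went from 192 and 212 CPM to 124 and 96.0 in Wt and from 215 and 212 to 104 and 126 in Spen-/- cells, a fall of 0.88 ± 0.16 (adjusted p = 0.0297). For each of the 3, the dox libraries lay below the untreated ones of the same genotype. The ESC marker sum was lower with dox in Wt cells (6403 and 9534 against 3270 and 4684 CPM) and in Spen-/- cells (7256 and 8513 against 6068 and 6976 CPM). Dppa5a carried most of this fall, from 3414 and 6533 to 1240 and 2194 CPM in Wt and from 4486 and 5970 to 3702 and 4421 CPM in Spen-/- cells. Pou5f1, Nanog and Tdgf1 overlapped between treated and untreated libraries in both genotypes. The differentiation sum was higher, at 55.2 to 94.7 CPM without and 149 to 437 CPM with dox, and the feeder sum went from 45.5 to 130 CPM to 11.8 to 48.2 CPM. The part of these markers in the falls of Tcl1, Fos and Lgmn was not tested, and sorting cannot be told apart from dox.

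**Figure D5:**
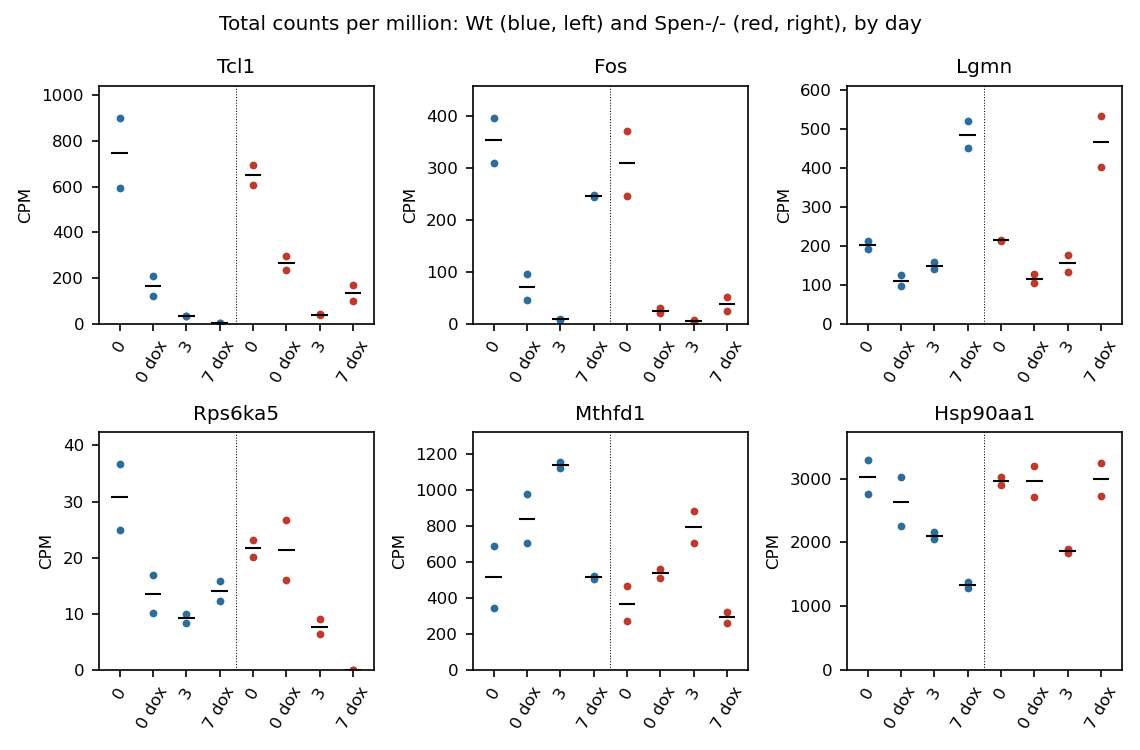
Total CPM (vertical axes, linear, from 0) of 6 members in each library (points) with the mean of 2 libraries (bars), in Wt (blue) and Spen-/- cells (red) at day 0 without and with dox, day 3 without and day 7 with dox. Tcl1 and Fos fall with dox and at day 3, Lgmn is highest at day 7, and Rps6ka5 is at 0 in both Spen-/- day 7 libraries.

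By day 3 without dox, 20 members were higher, with 2.87% of all genes higher, and 13 were lower, with 3.48% of all genes lower. Proximal genes, 169 in number, had 6 higher and 5 lower. The median change was 0.24 over the members, 0.02 over the proximal genes and 0.04 over all genes. Tcl1 fell by 4.26 (adjusted p = 5.32e-06) and Fos by 5.65 (adjusted p = 2.14e-05), to 3.04 to 8.88 CPM in the 4 day 3 libraries. Ak7, an adenylate kinase, fell by 4.80 (adjusted p = 0.0434). Ppp4r4, a regulatory subunit of protein phosphatase 4, rose by 3.73 (adjusted p = 0.0233), from 0 to 9.13 CPM at day 0 to 22.0 to 48.9. Ism2, a secreted protein, rose by 2.27 (adjusted p = 0.0135), and Rab15, a small GTPase of endosomes, rose by 2.25 (adjusted p = 0.00263). Rab15 went from 12.6 and 11.5 CPM to 97.98 and 84.54 in Wt and from 19.6 and 11.3 to 38.3 and 53.7 in Spen-/- cells. The differentiation marker sum moved with these genes, from 55.2 to 94.7 CPM at day 0 without dox to 563 to 753 CPM at day 3, and the ESC sum from 6403 to 9534 CPM to 2629 to 3064 CPM. Their part in the changes was not tested. Among the 6 differentiation genes Krt8 and Fgf5 carried most of their sum, and Gata6 was at most 0.570 CPM. Of the ESC markers Dppa5a fell most, from 3414 to 6533 CPM to 857 to 1336 CPM, and Zfp42, Sox2 and Tdgf1 also fell. Pou5f1 (286 to 515, then 329 to 503 CPM) and Nanog (237 to 346, then 212 to 356 CPM) overlapped between the days.

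At day 3 the RNA processing list had 3 of 13 members lower and 1 higher, beside 3.48% and 2.87% of all genes. Rbm25 fell by 1.16 (adjusted p = 0.00235), the splicing factor Srsf5 by 0.57 (adjusted p = 0.0175) and Zfp36l1, a factor of mRNA decay, by 1.19 (adjusted p = 0.00495), while Zc3h14, a poly(A)-binding protein, rose by 0.66 (adjusted p = 0.0305). In the metabolic list Mthfd1 rose by 1.12 (adjusted p = 0.0135) and the glutaredoxin Glrx5 by 1.36 (adjusted p = 0.0321), and the creatine kinase Ckb fell by 1.04 (adjusted p = 0.0177). Mthfd1 went from 691 and 344 CPM to 1123 and 1156 in Wt and from 466 and 273 to 704 and 887 in Spen-/- cells. Of the chaperones, Hsp90aa1 fell by 0.59 (adjusted p = 0.0123) and Atxn3, a deubiquitinase, by 1.06 (adjusted p = 0.0149). Pomt2, of protein O-mannosylation, rose by 1.97 (adjusted p = 0.0121), the checkpoint protein Cinp by 0.66 (adjusted p = 0.0275) and Irf2bpl by 1.44 (adjusted p = 0.0223), and Gtf2a1, a subunit of the general factor TFIIA, fell by 1.57 (adjusted p = 0.0233). No translation gene passed the threshold in any of the 4 comparisons. The median change of the 13 RNA processing members was -0.26 and that of the 12 metabolic members 0.35.

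By day 7 with dox, 18 members were higher than at day 0 with dox, with 5.37% of all genes higher, and 24 were lower, with 9.03% of all genes lower. Of the 169 proximal genes, which passed the same read minimum as the members, 14 were higher and 17 lower. The median change was -0.01 over the members, 0.05 over the proximal genes and -0.14 over all genes. Without the Spen-/- day 7 libraries, in Wt alone, 12 were higher and 14 lower, with 1190 of 17954 genes called. Of the 42 calls, 19 were kept. The sum of the differentiation markers was 1553 to 1595 CPM in Wt and 1914 to 2306 CPM in Spen-/- libraries, most of it Krt8, and T was at 192 and 211 CPM in Wt and at 0 in both Spen-/- libraries. The part of this difference in the members' changes was not tested.

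Lgmn rose by 2.08 (adjusted p = 1.39e-05), to 450 and 520 CPM in Wt and 402 and 533 in Spen-/- cells, above each earlier library. Tcl1 fell by 3.77 (adjusted p = 7.74e-06). Both kept their calls in Wt alone (2.11 and -6.61). Rps6ka5 fell by 5.33 in the fit (adjusted p = 0.000188), at least 55.6-fold lower in Spen-/- cells (a bound for counting error only). Wt cells, however, held 16.9 and 10.1 CPM at day 0 and 15.9 and 12.3 CPM by day 7. Slc25a29 (adjusted p = 0.0172), B930059L03Rik (adjusted p = 0.00942) and Gm48586 (adjusted p = 0.0238) were likewise called lower and were at 0 in both Spen-/- day 7 libraries. In Wt alone the changes of Rps6ka5 (0.026), B930059L03Rik (0.44) and Gm48586 (0.57) turned positive and that of Slc25a29 was -0.81, none past the threshold. Gm10451 was also called lower (adjusted p = 0.0205, kept in Wt alone), and was at 0 in both Wt day 7 libraries and at 3.600 and 4.999 CPM in the Spen-/- ones.

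In the list of membrane traffic and lipids, 4 of 17 members were higher at day 7 and none was lower, beside 5.37% and 9.03% of all genes. Npc2, a lysosomal cholesterol carrier, rose by 0.99 (adjusted p = 0.00152), from 221 and 231 CPM to 578 and 628 in Wt and from 276 and 314 to 394 and 476 in Spen-/- cells. Atp6v1d, of the proton pump that acidifies lysosomes, rose by 0.77 (adjusted p = 0.00169), Sptlc2, of sphingolipid synthesis, by 0.80 (adjusted p = 0.00605), and Tmed10 by 0.69 (adjusted p = 0.0410). The median of the 17 was 0.29. The Tmed10 call was kept in 11 of 22 alternatives, and in Wt alone Npc2 kept its call (1.38), while Atp6v1d (0.56), Sptlc2 (0.58) and Tmed10 (0.83) did not pass.

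In the chaperone list 4 of 9 fell and 1 rose, beside 9.03% of all genes lower and 5.37% higher. These were Hsp90aa1, which fell by 0.49 (adjusted p = 0.0169), its activator Ahsa1, by 0.70 (adjusted p = 0.00587), Atxn3, by 1.02 (adjusted p = 0.0100), and Ubr7, by 0.74 (adjusted p = 0.0229), while Sel1l, of the degradation of proteins of the endoplasmic reticulum, rose by 0.62 (adjusted p = 0.0499, kept in 3 of 22 alternatives). In Wt alone Hsp90aa1 (-1.03), Ahsa1 (-0.97) and Ubr7 (-0.94) kept their calls, and Atxn3 (-0.70) and Sel1l (0.47) did not. Hsp90aa1 was at 1374 and 1285 CPM in Wt but at 2731 and 3246 CPM in Spen-/- day 7 libraries, so the fall was seen in Wt cells.

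Of the signalling genes, the kinase Akt1 rose by 1.39 (adjusted p = 0.0274). Jag2, a Notch ligand, fell by 2.35 (adjusted p = 0.00149), from 23.5 and 35.2 CPM to 8.67 and 3.63 in Wt and from 23.8 and 17.5 to 4.50 and 3.02 in Spen-/- cells. Among transcription factors, Max, the partner of MYC, fell by 1.59 (adjusted p = 0.00146), and Fos rose by 1.20 (adjusted p = 0.0337). Fos was at 249 and 244 CPM in Wt and at 23.7 and 52.2 CPM in Spen-/- day 7 libraries. Acot2 (1.64, adjusted p = 0.0164) and Aldh6a1 (1.17, adjusted p = 0.00686), both mitochondrial enzymes, rose, and Mthfd1 fell by 0.79 (adjusted p = 0.0371). In the RNA processing list Zc3h14 rose by 0.88 (adjusted p = 0.00365) and Erh fell by 0.64 (adjusted p = 0.0206). In Wt alone Jag2 (-2.28), Fos (1.76) and Zc3h14 (0.88) kept their calls, and Akt1 (1.28), Max (-0.68), Acot2 (1.30), Aldh6a1 (1.12), Mthfd1 (-0.74) and Erh (-0.63) did not. Neither the DNA repair and chromatin list nor the translation list had a member called at day 7.

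The day 7 change differed between the genotypes in 7 of 219 members by an interaction test in the same fit, with 2.01% of all genes. The test was added after the data were seen, and it cannot be made without the Spen-/- day 7 libraries. Tcl1 and Gpx2, a glutathione peroxidase, changed more positively in Spen-/- cells, and Rps6ka5, B930059L03Rik, Gm48586, Ifi27 and Btbd6 more negatively. Ifi27, an interferon-induced gene, was at 13.4 and 9.35 CPM at day 0 with dox and 106 and 108 CPM by day 7 in Wt cells. In Spen-/- cells it was at 21.2 and 75.6 and then 25.5 and 34.5 CPM. Btbd6, an adaptor of ubiquitin ligases, was at 48.5 and 42.2 and then 38.6 and 33.0 CPM in Wt cells, and at 32.0 and 35.2 and then 2.06 and 1.63 CPM in Spen-/- cells. Gpx2 was at 19.2 and 15.3 and then 11.03 and 10.51 CPM in Wt cells, and at 11.01 and 10.05 and then 37.3 and 46.7 CPM in Spen-/- cells. In none of these 3 genes did the day 7 libraries of the genotypes overlap. For dox at day 0 and for day 3, no member differed between the genotypes in total counts by edgeR (7 and 5 at an unadjusted p under 0.05, with DESeq2 not run). In the Cast to 129/Sv ratio no member differed in any of the 3 effects (7, 2 and 14 at an unadjusted p under 0.05).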

How the data were processed

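RNA-seq counts of 16 libraries, 2 for each of 8 conditions, were analysed. Libraries were made by Smart-seq2 and sequenced as 50 bp single reads. Per the paper's methods and the submitters' processing notes, the authors aligned reads with HISAT2 2.2.1 to mm10 with variants between 129/Sv and Cast/Ei masked, split them by allele with SNPsplit, handled them with SAMtools 1.10 and counted them per gene with HTSeq 0.12.4. The deposited files hold raw counts in 3 columns (129/Sv, Cast/Ei, unassigned) without normalization. Lines naming no gene, 31.6% to 45.4% of reads, stayed out of library sizes and tests. Strand setting and duplicate removal are not given in the sources used here. Positions and types came from GENCODE M21 (GRCm38).

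Members, lists and named genes were chosen with earlier results of these data known. Named genes were the 3 on each side of the interval's start, the last 3, those nearest the read minimum, the 12 with the most allele-specific reads, the 5 lowest and 5 highest shares, the members called in a comparison (all if at most 6, otherwise the 6 with the largest change) and list members. A gene that this rule names is not reported here.

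R 4.3.3 with edgeR 4.0.16 and DESeq2 1.42.0, and Python 3.11.15, were used. Allele counts were fitted with a term per library and allele by condition, with 1 library size for both alleles. Total counts were filtered (filterByExpr, min.count 10), scaled by TMM and fitted over all conditions. CPM uses the TMM-scaled library size. Quasi-likelihood tests were adjusted over all genes tested. On simulated data for the genotype comparison, 63% and 95% of genes changed 4-fold and 16-fold were called in allele counts (6442 genes), and 37% and 75% in total counts (17163 genes). Replicates differed by more than counting error (chi-square per degree of freedom 11.3 to 73.4). Differences between replicates correlated across conditions by -0.0939 to 0.206 over 28 pairs, and replicate numbers were not treated as pairs in the main fits. Alternatives were other read minimums, scalings and filters, DESeq2, a replicate block, and libraries left out. Analyses added after seeing the data were the interaction tests, both Spen-/- day 7 libraries left out, shares relative to proximal genes, and the member with the most reads left out.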

Additional observations from a re-analysis of the deposited data

Results flagged for a closer look

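The day 7 effect (day 7 minus day 0, both with dox) on total counts differed between Spen-/- and Wt cells in 7 members, by an interaction test added after the data were seen (edgeR, adjusted over 18150 genes). The log2 difference, Spen-/- minus Wt, was 5.61 for Tcl1 (SE 0.52, adjusted p = 0.000381), 2.68 for Gpx2 (adjusted p = 0.0294), -3.92 for Ifi27 (adjusted p = 0.0196) and -3.84 for Btbd6 (adjusted p = 0.0427). It was -10.80 for Rps6ka5 (adjusted p = 0.00102), -9.35 for B930059L03Rik (adjusted p = 0.0213) and -9.20 for Gm48586 (adjusted p = 0.0469). These last 3 were at 0 in both Spen-/- day 7 libraries, so their fitted differences depend on the prior count and are no bounds. Against a floor of 3 counts per library, which covers counting error only, they were at least 55.6-fold, 15.4-fold and 12.7-fold lower than in Spen-/- cells at day 0 with dox. Gm48586 lies within Rps6ka5, and the reads of these overlapping genes could not be separated. The part of the fewer detected genes and the higher ESC marker sum of the Spen-/- day 7 libraries in these results was not tested.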

How the results depend on the processing

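Alternatives with a replicate block left 1, 0, 0 and 0 members called for the Cast to 129/Sv ratio (genotype, dox, day 3, day 7) and 13, 3, 33 and 46 for total counts, so the block ended both ratio calls at day 7. The genotype difference in median share, 0.0172, cannot change with a block, since each condition holds 1 library of each replicate number. Replicate numbers were not treated as pairs in the main fits. Correlations between same-numbered replicates had a median of 0.0172, and 4 of 28 exceeded 0.1, so this check does not show that all libraries were unpaired.

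Correction by the autosomal median moved the mean Cast share of members from 0.740 to 0.752. Summed reads moved the distal minus proximal difference from 0.232 to 0.209. The log2 ratio of distal to proximal total reads, 1.13, became 0.14 as a difference of median log2 CPM over genes and 1.004 without Hsp90aa1. DESeq2 called 4, 1, 0 and 6 members for the ratio, against 1, 0, 0 and 2 by edgeR, and 38 (15 higher), 12, 58 and 72 for total counts, against 15, 3, 33 and 42. With no filter on low counts, 36 (15 higher) and 8 (4 higher) members were called for genotype and dox. Calls among all genes are given here only for the fit of all libraries and that without both Spen-/- day 7 libraries. Counts under the other alternatives cannot be set against a share of all genes.

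Without both Spen-/- day 7 libraries, a choice made after seeing the data, no member was called for the ratio between genotypes (0, with 9 at an unadjusted p under 0.05) or at day 7 (0, with 9), and the total counts gave 0, 5, 39 and 26, keeping 0 of 15, 3 of 3, 33 of 33 and 19 of 42 calls. Over all genes, 3 and 20 of 6442 were called for these ratios, and 19, 162, 1676 and 1190 of 17954 for total counts. The log2 change then reversed for B930059L03Rik (genotype 0.041, day 7 0.44), Rps6ka5 (day 7 0.026) and Gm48586 (day 7 0.57), none past the threshold.

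Leaving out single libraries kept the mean share at 0.738 to 0.742, the distal minus proximal difference at 0.228 to 0.233, the genotype difference at 0.0144 to 0.0199 and the log2 ratio at 1.12 to 1.14. Ratio calls between genotypes ranged from 1 to 4 (3 and 2 without Spen-/- day 0 no dox replicates 1 and 2, 4 and 3 without Spen-/- day 7 replicates 1 and 2), those for dox and day 3 stayed at 0, and those at day 7 ranged from 0 to 10. The latter were 0 without any 1 Wt library of day 0 with dox, day 3 or day 7, 1 without any 1 Spen-/- library of day 0 or day 3, and 9 and 10 without Spen-/- day 7 replicates 1 and 2. Total count calls between genotypes ranged from 4 to 23. Replicates 1 and 2 of Wt day 0 no dox gave 9 and 23, of Wt day 3 5 and 5, of Wt day 7 5 and 6, and of Spen-/- day 3 4 and 8, while Wt day 0 dox replicate 1 gave 7 and Spen-/- replicate 2 of day 0 without and with dox 9 each. Those for dox ranged from 2 to 8 (8 without Wt day 0 no dox replicate 1, 5 without either Spen-/- day 7 library). Those at day 3 ranged from 6 to 38 (18 without Wt and 12 without Spen-/- day 0 no dox replicate 2, 8 and 7 without Wt day 3 replicates 1 and 2, 13 and 6 without the Spen-/- ones), and those at day 7 from 22 to 47 (22 and 23 without Wt day 7 replicates 1 and 2). Over 96 results for named genes, 1550 alternatives kept direction and call, 558 lost the call and 4 reversed. An allele could be assigned to 13.0% to 15.3% of reads, and 156 of 219 members had enough of them for the ratio test.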
